A study of Rattus norvegicus with 10 samples.

Results

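The peripheral myelin protein genes examined here are Mbp, Pmp22, Mag, Prx, Mal, Pllp, Cldn19 and Drp2, structural genes of the sheath that Schwann cells wind around peripheral axons. They were chosen by name, and all 8 had 1 row each among the 30560 genes of the table and enough counts to be tested. The RNA came from the L6 dorsal root ganglia (swellings of the spinal nerve root that house sensory neurons, their glia and their fibres) of 7 to 8 week old Sprague Dawley rats. A lumbar intrathecal catheter had been implanted in all animals, isoflurane was used for surgery and dosing, and meloxicam SR was given after both, in control rats too. Dosing followed the surgery by 5 days, and the labels give a timepoint of 14 days for every sample without saying from which event. Controls, 5 samples, had received phosphate-buffered saline (PBS, dose 0 mg) through the catheter, and the treated group, also 5 samples, 0.75 mg of SCN9A_2544, a small interfering RNA (siRNA) that the series directs at Scn9a, the gene of the sodium channel Nav1.7. A control siRNA was not analysed here.

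Schwann cells build myelin by wrapping their membrane around an axon and then fusing its layers into a compact stack, with uncompacted channels, junctions and an outer surface kept apart from it. Large sensory axons are myelinated and most small nociceptive axons are not, and myelin covers the fibres that run into and through a ganglion rather than most of its cell bodies. The transcription factors Egr2 and Sox10 switch on many of these genes together, and Tead1 acts on them with the coactivators Yap1 and Wwtr1. Mbp encodes the basic protein that holds the cytoplasmic faces of compact myelin together, and Pmp22 encodes a tetraspan protein of compact myelin whose duplication causes a hereditary neuropathy in humans. Mal and Pllp encode tetraspan proteins of cholesterol-rich membrane that take part in sorting to myelin. Mag encodes an adhesion molecule of the innermost Schwann cell membrane, facing the axon, and Cldn19 a claudin of Schwann cell tight junctions. Prx encodes periaxin, a scaffold that joins the dystrophin relative encoded by Drp2 and dystroglycan at the outer surface of the sheath.

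Sequence upstream of the annotated start is shown for 3 of the genes because these genes share regulators and, as described below, moved together. They are Mag, whose level changed most between libraries, Prx, which stayed closest to the other genes, and Pmp22. Each is the 250 bases before a start site in RefSeq on build GRCr8: chr1:95291045-95291294 on the minus strand for Mag, chr1:91914171-91914420 on the plus strand for Prx and chr10:48294682-48294931 on the plus strand for Pmp22. Capitals mark matches, on either strand, to ACAAAG (a SOX core), GTGGGNG (an EGR core) or GGAATG (a TEAD core).
Mag: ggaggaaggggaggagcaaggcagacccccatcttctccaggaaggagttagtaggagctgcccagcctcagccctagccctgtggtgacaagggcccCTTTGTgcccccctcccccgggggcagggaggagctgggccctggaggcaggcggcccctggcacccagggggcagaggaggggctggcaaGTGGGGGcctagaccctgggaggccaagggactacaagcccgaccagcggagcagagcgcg
Prx: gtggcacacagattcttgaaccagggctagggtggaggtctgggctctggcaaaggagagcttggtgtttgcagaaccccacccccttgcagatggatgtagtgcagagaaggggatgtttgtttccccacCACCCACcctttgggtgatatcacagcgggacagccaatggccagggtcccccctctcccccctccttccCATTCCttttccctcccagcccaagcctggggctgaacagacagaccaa
Pmp22: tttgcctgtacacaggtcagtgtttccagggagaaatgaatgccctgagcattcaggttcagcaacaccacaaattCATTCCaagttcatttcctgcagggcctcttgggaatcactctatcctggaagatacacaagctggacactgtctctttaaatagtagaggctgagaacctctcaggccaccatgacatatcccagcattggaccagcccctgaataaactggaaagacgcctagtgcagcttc
RefSeq held 10 such windows for the 8 genes, with 2 start sites each for Mbp and Drp2. The EGR core was in 5 of the 10, against 25.6% of all 33469 windows of that length, the SOX core in 2, against 16.3%, and the TEAD core in 3, against 12.1%. The windows of Mal and Pllp held no match to any of these cores. No printed match overlapped another, and a match is a run of letters, not a site shown to be bound. A link between the matches and the shared movement of the genes was not tested.

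The libraries held between 11832376 and 15420006 estimated counts each, and 15186 genes were tested. Scn9a, the targeted gene, stood at 132 to 257 CPM (a gene's share of the library's counts, scaled by TMM factors) in PBS and at 44.6 to 103 CPM in treated libraries. These ranges did not overlap, and the exact permutation test (two-sided) gave p = 0.00794, the lowest possible with 5 against 5. In the fits across all genes it was not called, with an adjusted p = 0.963 by edgeR and 0.0604 by DESeq2. The neuronal level of a library was taken as the mean log2 CPM of Snap25, a synaptic vesicle fusion protein, and Uchl1, a ubiquitin hydrolase abundant in neurons. It was 10.35 ± 0.54 in PBS and 10.35 ± 0.55 in treated libraries (SD, n = 5 each; two-sided exact permutation p = 1). SCN9A_2544 replicate 3, at 9.42, PBS replicate 3, at 9.60, and PBS replicate 5, at 10.09, had the lowest neuronal levels. Slopes of the 8 genes are given with and without these libraries, and those of other genes only with them. Of 12 genes listed for oligodendrocytes, the myelinating cells of the central nervous system, Mog, Mobp, Opalin and Olig2 had at most 23.6, 12, 12 and 2 estimated counts in any library, and Nkx6-2 and Tmem125 were also too low to be tested. The other 6 were tested, with Cldn11 at up to 1194 estimated counts, Myrf at up to 591, Sox17 at up to 436, Hapln2 at up to 361, Gpr37 at up to 310.0 and Ermn at up to 72. The 8 genes together took 0.575% to 2.65%.

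The compact myelin genes differed several-fold between libraries of the same group. Mbp stood at 2210, 6506, 9067, 3068 and 9526 CPM in PBS replicates 1 to 5 and at 2416, 3704, 10664, 4372 and 3802 CPM in treated replicates 1 to 5. The highest library was treated replicate 3 and the lowest PBS replicate 1, 4.82-fold apart, and the groups overlapped. Pmp22 stood at 2337, 7019, 10799, 2931 and 11585 CPM in PBS and at 2132, 2971, 8805, 4245 and 3427 CPM in treated replicates 1 to 5. Its highest values were in PBS replicates 5 and 3, with treated replicate 3 next, and the groups overlapped.

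The raft proteins followed the same order with small exchanges. Mal stood at 270.2, 819, 1491, 352 and 1208 CPM in PBS replicates 1 to 5 and at 238, 287, 1156, 633 and 504 CPM in treated replicates 1 to 5. PBS replicates 3 and 5 and treated replicate 3 were the 3 highest libraries, and treated replicates 1 and 2 lay near the lowest PBS library. Pllp stood at 86.0, 283, 385, 135 and 374 CPM in PBS and at 95.4, 143, 514, 185 and 171 CPM in treated replicates 1 to 5, with treated replicate 3 the highest and the groups overlapping.

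Mag and Cldn19, at the axon-facing membrane and the junctions, had the widest ranges. Mag stood at 26.2, 79.2, 155, 45.0 and 128 CPM in PBS replicates 1 to 5 and at 23.7, 42.5, 322, 57.9 and 43.9 CPM in treated replicates 1 to 5. Treated replicate 3 alone was above all PBS libraries, and the other 4 treated libraries lay between 23.7 and 57.9 CPM, so the full range was 13.6-fold. Cldn19 stood at 52.7, 182, 267, 104 and 280.2 CPM in PBS and at 64.9, 104, 468, 121 and 109 CPM in treated replicates 1 to 5. It ranged 8.89-fold, again with treated replicate 3 at the top, and the groups overlapped. Without that library Mag ran from 23.7 to 155 CPM and Cldn19 from 52.7 to 280.2 CPM.

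The scaffold partners at the outer surface parted in treated replicate 3. Prx stood at 582, 2184, 3314, 972 and 3319 CPM in PBS replicates 1 to 5 and at 693, 1156, 3828, 1365 and 1326 CPM in treated replicates 1 to 5. Treated replicate 3 was its highest library. Drp2 stood at 113, 416, 460.4, 195 and 732 CPM in PBS and at 156, 224, 333, 227 and 232 CPM in treated replicates 1 to 5. In Drp2 treated replicate 3 was the highest of its own group but lay below PBS replicates 2, 3 and 5, and the groups overlapped.

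**Figure D1:**
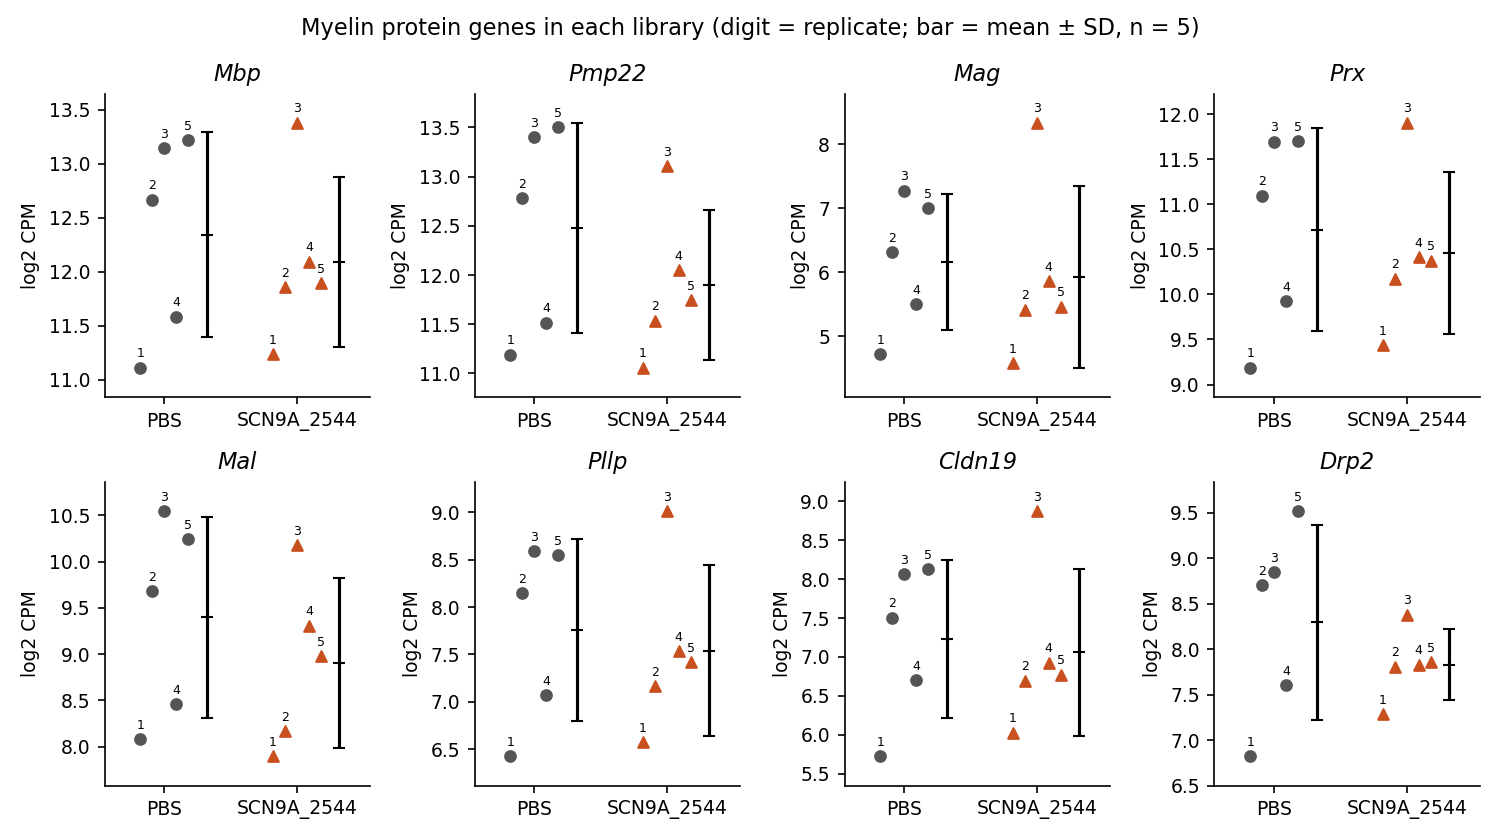
Level of each gene in every library on the log2 CPM scale (vertical axis, 1 panel per gene) by group, with the replicate number at each point and the mean ± SD (n = 5) as a black bar. The groups overlap in every panel, and treated replicate 3 with PBS replicates 3 and 5 are the 3 highest libraries except for Drp2, where treated replicate 3 is the fourth.

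The 8 genes were lower where the neuronal level was higher. Earlier results of these data had already shown neuronal and Schwann cell genes moving against each other. The p-values of the slopes and of r below are therefore not a fresh test of that direction. The genes also moved together, as described below, so 8 calls are not 8 separate observations. In an edgeR quasi-likelihood fit over all genes, with group in the model, the slope on the neuronal level (the change in log2 CPM for 1 log2 unit of neuronal level) was below 0 with an adjusted p under 0.05 for 8 of 8 genes. That direction was called for 20.6% of all genes tested, the opposite direction for 21.8% and either for 42.4%. A called slope below -1 was found for 8 of the 8 genes and 4.66% of all genes, and one below -1.4 for 7 of the 8 and 1.42% of all, limits set with the slopes known. The median slope was -1.63 over the 8 genes and -0.01 over all tested genes. In bulk tissue, fewer cells of a type and less RNA per cell cannot be told apart, and since all values of a library share 1 total, a rise in neuronal RNA lowers the share left for other RNA.

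Mag had the steepest slope, -2.19 (SE 0.21, adjusted p = 2.15e-05 by edgeR), a 4.57-fold lower level for each 1 log2 unit of neuronal level. Cldn19, Mal and Prx had slopes of -1.75 (SE 0.21), -1.73 (SE 0.21) and -1.69 (SE 0.23), with adjusted p-values of 8.08e-05, 6.59e-05 and 0.000151. Pllp and Pmp22 both had a slope of -1.58 (SE 0.19 and 0.22), and Mbp one of -1.47 (SE 0.20), with adjusted p-values of 6.7e-05, 0.000171 and 0.000148. Drp2 had the shallowest, -1.07 (SE 0.32, adjusted p = 0.0189). The intervals of neighbours in this order overlapped, from that of Mag, -2.64 to -1.75, to that of Drp2, -1.78 to -0.37, and the differences between slopes were not tested. The order also depended on SCN9A_2544 replicate 3. Without that library Mal was steepest, at -2.13, followed by Prx and Pmp22, both at -1.89, and Mag at -1.86. Drp2 was then at -1.59, close to Mbp at -1.61.

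Across the 10 libraries Pearson's r with the neuronal level was -0.91 for Mbp, -0.87 for Pmp22, -0.94 for Mag, -0.91 for Prx, -0.90 for Mal, -0.92 for Pllp, -0.92 for Cldn19 and -0.69 for Drp2. Permutation p-values for these 8 relations, adjusted over all genes tested, ran from 0.00093 for Mag and Pllp to 0.00663 for Pmp22, and the adjusted p was 0.063 for Drp2 (unadjusted permutation p = 0.0256). Spearman's rho ran from -0.94 for Pllp to -0.84 for Mag and Drp2, with adjusted permutation p-values of 0.00676 to 0.0238. A negative r passed for 17.4% of the genes tested and a positive r for 19.9%. Without PBS replicate 3 and SCN9A_2544 replicate 3, the libraries farthest from the median neuronal level, r ran from -0.95 for Mal to -0.86 for Mag and Cldn19 and was -0.88 for Drp2 (adjusted permutation p-values 0.0281 to 0.0448). Libraries of nearly equal neuronal level still differed: PBS replicates 1 and 4, at 10.86 and 10.87, held 582 and 972 CPM of Prx. PBS replicate 2 and treated replicate 4, at 10.35 and 10.38, held 7019 and 4245 CPM of Pmp22.

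Without the 3 libraries of lowest neuronal level, the edgeR call was kept for 3 of the 8 genes, Mal, Pmp22 and Pllp, with slopes of -3.08, -2.46 and -2.38 (adjusted p = 0.00724, 0.0397 and 0.0487). The other 5 had slopes from -2.09 to -2.50 and adjusted p-values from 0.0735 to 0.123, while 0.637% of all genes were called in that direction. Without PBS replicate 4 the call of Drp2 was lost (adjusted p = 0.0607). With replicate number added to the edgeR fit as a block, 0 of the 8 slopes were called (adjusted p = 0.215 to 0.284). In that fit 0% of all genes were called lower.

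**Figure D2:**
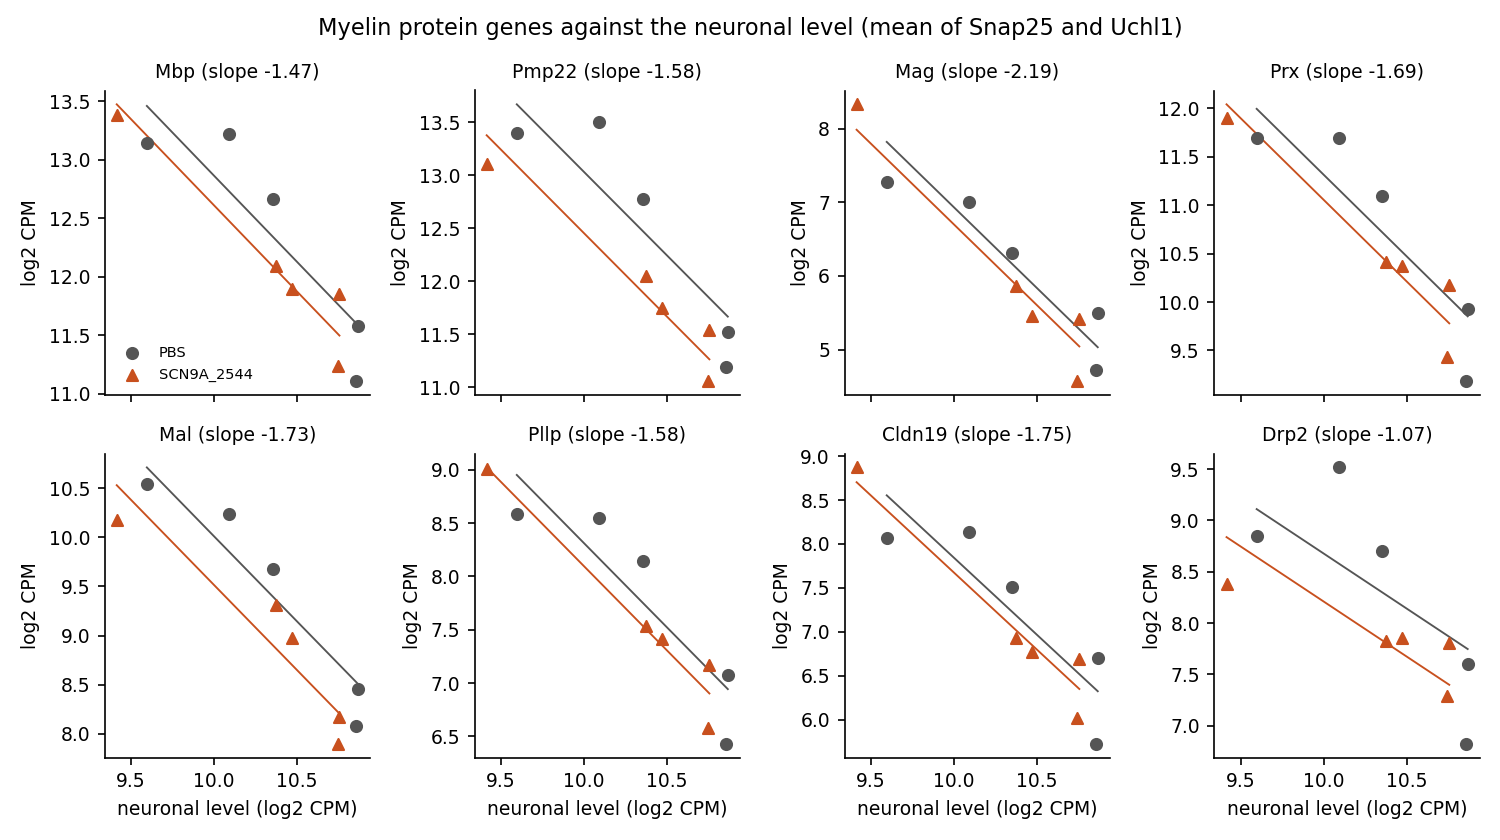
Level of each gene (log2 CPM, vertical) against the neuronal level of the library (mean log2 CPM of Snap25 and Uchl1, horizontal), with PBS as grey circles and SCN9A_2544 as orange triangles. Lines carry the edgeR slope through the mean of each group, and the points fall from the upper left to the lower right in all 8 panels, least closely for Drp2.

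The slopes did not differ detectably between the groups. The interaction of group and neuronal level passed for 0 of the 8 genes by edgeR, with adjusted p-values of 0.585 to 0.981, against 0.00659% of all genes. At an unadjusted p under 0.05 it also took 0 of 8, against 9.48% of all genes, and the DESeq2 count was 0 of 8. The interaction was largest for Drp2, 1.09 (SE 0.60), and lowest for Mag, -0.67 (SE 0.41), so differences of that size in slope could not be told from the spread.

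Other genes of the sheath were also measured, and the slopes of these and later lists come from all 10 libraries only. Of the 29 tested genes in a list of other myelin and Schwann cell surface genes, 20 fell and 2 rose with the neuronal level by edgeR, with a median slope of -0.98, where 20.6% of all genes were called lower and 21.8% higher. Among those with the smallest p were Cnp, a phosphodiesterase of uncompacted myelin, at -1.88 (SE 0.11), the connexin gene Gjc3 at -2.36 (SE 0.14), and Gldn, the gene of gliomedin at nodes, at -1.73 (SE 0.17). The 2 that rose were Adam22, also a neuronal gene, and Mpzl2, at 1.29, which are named after their values were seen. Of 13 enzymes of myelin lipids, 7 fell, 2 rose and 4 did not pass. The ceramide synthase Cers2, the fatty acid elongase Elovl1, the sulfatide enzyme Gal3st1 and the fatty acid hydroxylase Fa2h had slopes of -1.13, -0.96, -1.23 and -1.50.

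Of 23 regulators of myelination tested, 17 fell, 2 rose and 4 did not pass, with a median slope of -0.74. Of all genes tested 20.6% were called lower and 21.8% higher. Egr2 had a slope of -2.16 (SE 0.16), the coactivator Wwtr1 one of -1.47 (SE 0.11) and the repressor Zeb2 one of -1.28 (SE 0.11). Nrg1, the neuregulin by which axons signal to Schwann cells, rose with the neuronal level, at 1.34 (SE 0.14). Egr2 ranged from 16.8 CPM in treated replicate 1 to 171 CPM in PBS replicate 3. The EGR core marked above in Mag and Prx is the motif of its family, and its binding was not measured.

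Some genes of other cells in the ganglion also moved with the neuronal level, and their part in the slopes of the 8 genes was not tested. Their counts stand beside the same 20.6% of all genes called lower and 21.8% called higher. Of 10 tested fibroblast and perineurial genes 6 fell and 0 rose (median slope -1.06), with Apod at -1.46, Itgb4 at -0.72, Col1a2 at -1.35 and Dcn at -1.18. Their summed level ran from 2038 to 12870 CPM in PBS and from 4245 to 9733 CPM in treated libraries. Of 12 endothelial and mural genes 7 fell and 0 rose (median -0.52), among them Pdgfrb and with Tek, Vwf and Cspg4 at -0.60, -0.67 and -0.86, and sums of 201 to 455 CPM in PBS and 281 to 494 CPM in treated libraries. Of 12 macrophage genes 0 passed in either direction (median -0.31), the 4 smallest p belonging to C1qb, C1qa, Cd68 and C1qc.

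Markers of other glia passed in both directions, and these counts stand beside the 20.6% of all genes called lower and the 21.8% called higher. Among 12 satellite glia genes 3 fell, 3 rose and 6 did not pass, with Plekhb1 at -1.38 and Sparcl1 also lower against Aldoc at 0.80 and Fabp7 at 0.92. Among 12 genes of non-myelinating Schwann cells 5 fell and 4 rose, with Matn2 at -1.23 and Sox5 at -1.32 against Adam23 at 1.08 and Csmd1 at 0.69. Among 14 genes of immature or repair Schwann cells 7 fell and 3 rose, with Gfap at -1.56, Sox2 at -0.83 and Btc at -1.38 against the neurotrophin receptor gene Ngfr at 0.66. Of the 6 tested oligodendrocyte genes 2 fell and 1 rose, and of 6 muscle, fat and blood genes 0 passed. Of 16 other neuronal genes 15 rose and 1 did not pass, with Syn1, Snap91, Tubb3 and Nefl at 1.23, 1.27, 0.94 and 1.21. Cdh19, Itgb4, L1cam and Ncam1 stand in more than 1 of these lists, and satellite glia and Schwann cells share several of their markers.

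**Figure D3:**
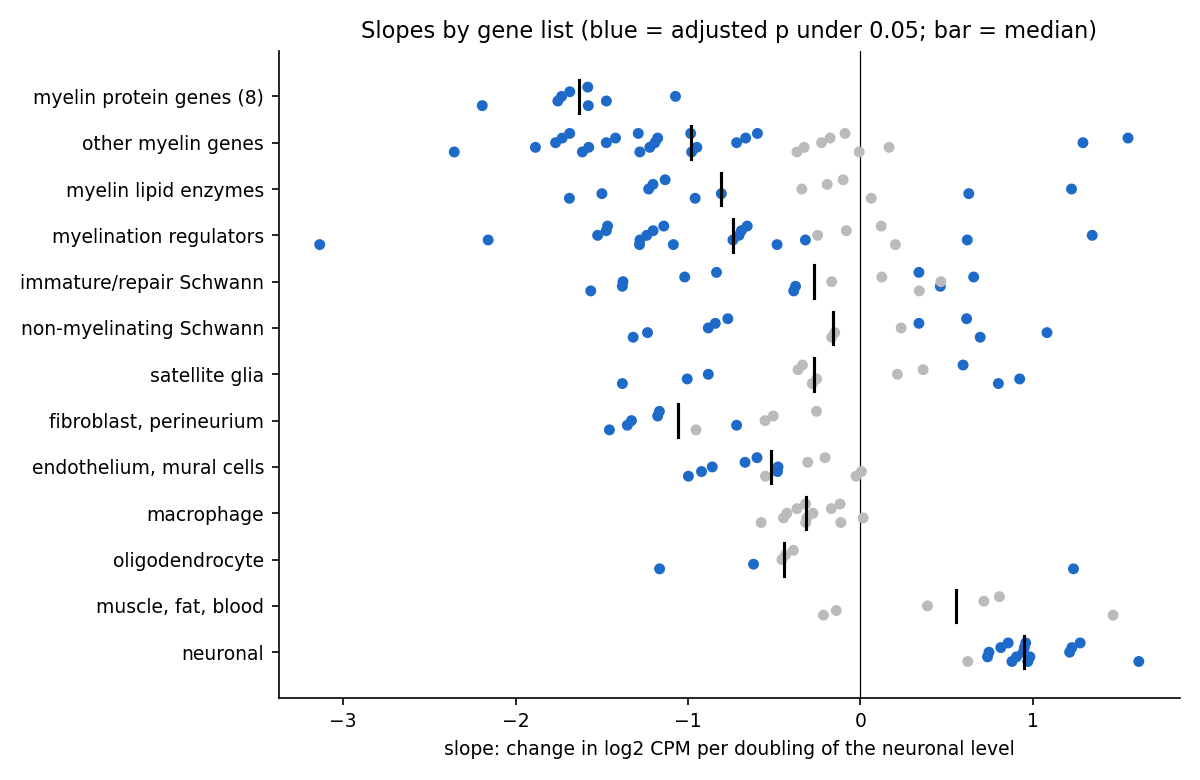
Slope on the neuronal level (horizontal, log2 CPM for 1 log2 unit) of each tested gene of 13 lists, 1 row per list, blue where the edgeR adjusted p was under 0.05, with the median as a bar. The 8 myelin protein genes lie from -2.19 to -1.07, and the 16 neuronal genes from 0.62 to 1.61.

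Of the 8 genes, all but Mag and Drp2 varied far more with each other than against each other. The SD of a gene over the 10 libraries was 0.80 to 1.19 on the log2 CPM scale, while the SD of its difference from the mean of the other 7 was 0.10 for Prx, 0.11 for Pllp, 0.12 for Mbp, 0.20 for Pmp22, 0.22 for Cldn19 and 0.28 for Mal. For Mag and Drp2 it was 0.44 each. Of the 28 log2 ratios between pairs of genes, that of Mbp to Pllp varied least (SD 0.10) and that of Mag to Drp2 most (SD 0.76). The groups overlapped in all 28 pairs. Mbp to Pmp22 was -0.13 ± 0.14 in PBS and 0.19 ± 0.11 in treated libraries (SD, n = 5 each), with an overlap between 0.04 and 0.07. It is named after its values were seen and was not tested.

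Treated replicate 3 departed most from a common pattern. Relative to the other 7 genes and to its own mean over libraries, Mag stood 1.17 log2 units higher there, Cldn19 0.53 higher, Drp2 at -1.08 and Pmp22 at -0.40. The other 9 libraries kept Mag between -0.40 and 0.19 and Drp2 between -0.32 and 0.40. Mal had its lowest value, -0.52, in treated replicate 2 and its highest, 0.37, in PBS replicate 3.

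**Figure D4:**
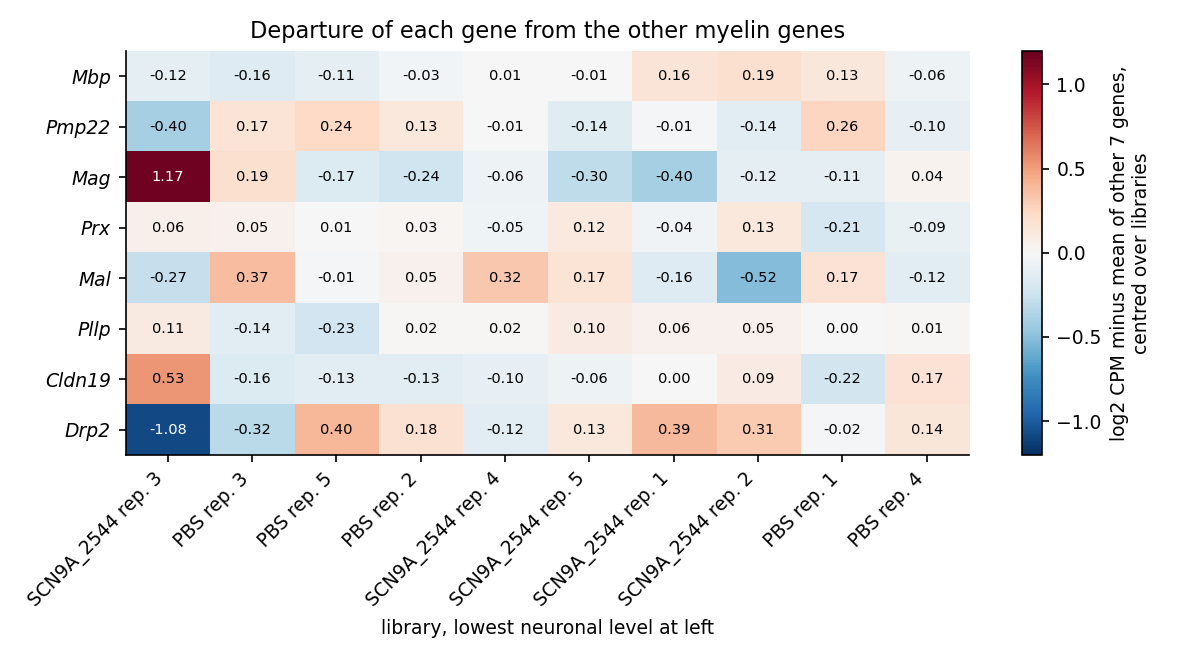
Difference of each gene (rows) from the mean of the other 7, in log2 CPM and centred over libraries, for each library (columns, lowest neuronal level at the left). SCN9A_2544 replicate 3, the leftmost column, holds the extremes, 1.17 for Mag and -1.08 for Drp2, and Prx, Pllp and Mbp stay within 0.23 of 0 in every library.

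Among genes outside the 8, those whose log2 CPM followed the mean of their z-scores most closely over the 10 libraries included Mboat1, Fxyd6, Gjb1, Ston1, Fa2h, Cmtm6, Epb41l4b, Syde2 and Itga6, with Pearson r from 0.996 for Mboat1 to 0.986 for Itga6. This is a description with no test, over libraries that differed in their neuronal level. Gjb1 encodes the connexin of uncompacted myelin, and ranged from 15.1 to 91.4 CPM. Itga6 encodes a laminin receptor subunit of the Schwann cell surface and ranged from 128 to 832 CPM.

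The comparison of the design was SCN9A_2544 against PBS, and it called 0 of the 8 myelin protein genes by edgeR and 0 by DESeq2. Over all genes 0% were called by edgeR and 0.0945% by DESeq2, and at an unadjusted p under 0.05 edgeR took 0 of the 8, against 4.23% of all genes. The groups were free of overlap for 0 of the 8, against 0.665% of all genes. The log2 fold change was below 0 for 7 of the 8, with a median of -0.30, and below 0 for 46.6% of all genes, with a median of 0.02. Since the 8 genes moved together over the libraries, their signs are not 8 separate observations. Fibroblast and perineurial genes lay below 0 for 7 of 10, with a median of -0.40, and their part in the myelin values was not tested. The median without 1 library ran from -0.91, without treated replicate 3, to -0.09, without PBS replicate 3.

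Drp2 averaged 383 ± 244 CPM with PBS and 234 ± 63.2 CPM with SCN9A_2544 (SD, n = 5 each), a log2 fold change of -0.71 (95% interval -1.62 to 0.20, edgeR adjusted p = 0.963). Pmp22 averaged 6934 ± 4293 and 4316 ± 2623 CPM, with -0.68 (-1.78 to 0.41), and Mal at 828 ± 529.7 and 564 ± 368 CPM, with -0.55 (-1.70 to 0.59). Prx, Mbp, Pllp and Cldn19 had log2 fold changes of -0.31 (-1.48 to 0.86), -0.28 (-1.33 to 0.76), -0.19 (-1.27 to 0.89) and -0.03 (SE 0.56). For Drp2 the difference was larger than the SD of the treated libraries, 0.39 on the log2 CPM scale, and smaller than that of the PBS libraries, 1.07. For the other 7 genes it was smaller than the SD of either group, and sizeable changes in either direction would not be detectable with intervals this wide.

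Mag showed how 1 library can set the sign. It averaged 86.5 ± 54.2 CPM with PBS and 97.9 ± 126 CPM with SCN9A_2544 (SD, n = 5 each), with an edgeR log2 fold change of 0.18 (-1.34 to 1.70), while its mean log2 CPM was lower in treated ganglia, at 5.93 against 6.16. Without treated replicate 3 the log2 fold change was -1.08, with an adjusted p = 0.661 by edgeR.

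With the neuronal level as a covariate the intervals became narrower, and 0 of the 8 passed an adjusted p of 0.05 by edgeR, as did 0% of all genes. The log2 fold change was then below 0 for 8 of 8, against 47.1% of all genes, from -0.22 for Cldn19 to -0.62 for Pmp22, with a median of -0.29. Again these signs are not 8 separate observations. Pmp22 (-0.62, interval -1.07 to -0.17, adjusted p = 0.370) and Mal (-0.49, -0.92 to -0.07, adjusted p = 0.386) had an unadjusted p under 0.05, which 11.7% of all genes reached. Drp2 had a value of -0.58 (-1.22 to 0.06) and Mbp one of -0.29 (-0.70 to 0.13).

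**Figure D5:**
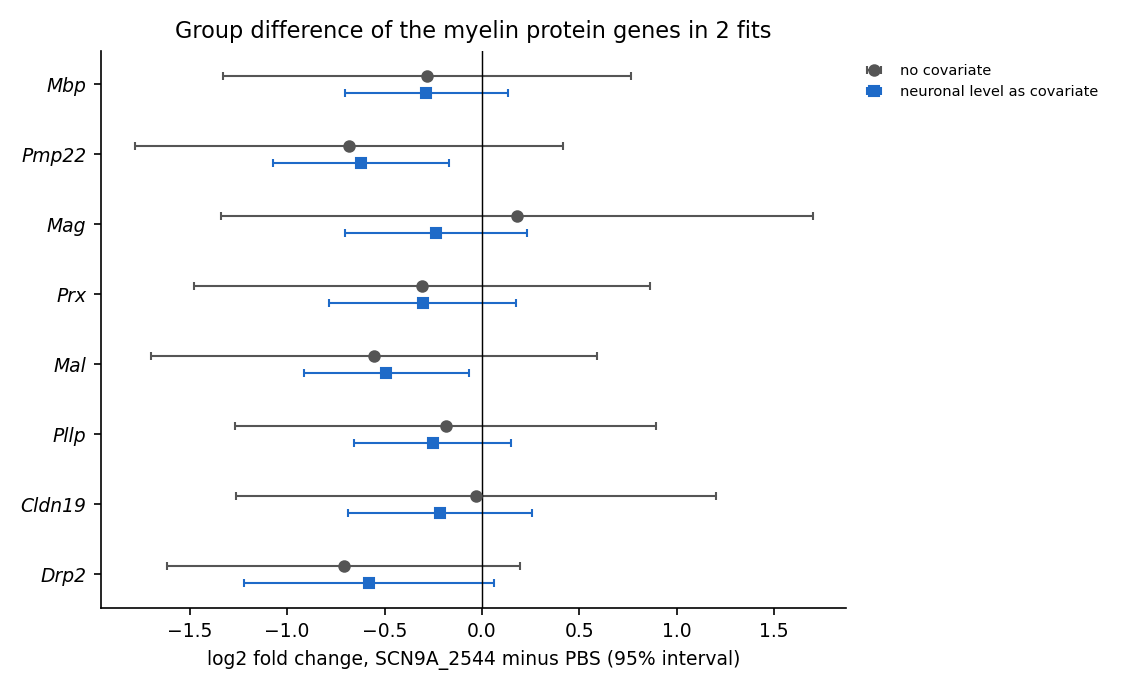
Log2 fold change, SCN9A_2544 minus PBS, of each gene with its 95% interval (horizontal), in 2 edgeR fits, without a covariate (grey) and with the neuronal level (blue). The grey intervals all cross 0, and the blue values lie from -0.62 to -0.22.

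The other lists showed 0 calls between the groups by edgeR. Of all genes tested 0% were called and 46.6% lay below 0, with a median of 0.02. Of the other myelin genes 12 of 29 lay above 0 and 17 below (median -0.06), and the 4 smallest p belonged to Pmp2, a fatty acid carrier of myelin, at -1.18 (adjusted p = 0.963), S100b at -0.52, the tetraspanin Cd9 at -0.60 and Cd81 at 0.28. Pmp2 stood at 332, 1257, 815, 508 and 2560 CPM in PBS and at 234, 368, 832, 514 and 467 CPM in treated replicates 1 to 5. Of the lipid enzymes 5 of 13 lay above 0 (median -0.09), and of the regulators 14 of 23 (median 0.18). Genes of immature or repair Schwann cells lay above 0 for 13 of 14 (median 0.28), with Jun at 0.74, Atf3 at 1.42, Runx2 at 0.97 and Sox2 at 0.64, and neurons also express Jun and Atf3 after injury. Macrophage genes lay above 0 for 11 of 12 (median 0.55). By edgeR 6 of the 12 had an unadjusted p under 0.05, against 4.23% of all genes. C1qa had the smallest, at 1.03 (edgeR adjusted p = 0.812). Genes within a list may move together, and the lists were chosen with earlier results of these data known. Counts within a list are therefore not separate observations. The summed macrophage level ran from 123 to 197 CPM in PBS and from 192 to 361 CPM in treated libraries, and its part in the myelin values was not tested.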

How the data were processed

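The authors deposited raw estimated counts, 1 column for each library. Per the submitters' processing notes, STAR 2.7.10a, DESeq2 1.44.0 and build mRatBN7.2 were used, with no role given. A counting program, annotation and strand setting were not given in the sources used here. Per the labels' protocols, poly(A) RNA was made into paired libraries of 150 bases. The design assumed whole counts; the expected counts were rounded, and the test was kept.

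Genes were filtered with filterByExpr (minimum count 10, minimum total 15), libraries were scaled by TMM, and edgeR 4.0.16 in R 4.3.3 gave quasi-likelihood tests, with Benjamini-Hochberg adjustment over the 15186 genes that passed and calls at 0.05; standard errors are the log2 fold change over the square root of F. Log2 CPM values used a prior count of 2, and correlations 1e+05 permutations. Alternatives were DESeq2 1.42.0, limma 3.58.1 voom, other scalings, no filter, a neuronal covariate, a replicate block and leaving out libraries. Fits were tested on simulated data. Whether each library came from its own rat is not stated, so the tests see only how these libraries vary, which may be technical. No 2 libraries were alike within counting noise (chi-square per gene 7.80 to 218 over 45 pairs).

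The members and the 14 lists (194 entries, 188 with a row) were chosen with earlier results of these data known. Named genes are the 8 members, Snap25, Uchl1, Scn9a, the 4 smallest p of each described list, and the 10 genes most like the members; a few results under this rule are not reported here. The table's gene names were used as given.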

Additional observations from a re-analysis of the deposited data

Results flagged for a closer look

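The 8 genes, their departures from each other, the neuronal genes, the neuronal level and Scn9a formed 40 sets of 5 values within a group. Of these sets 5 held a library far from the other 4, and chance gives about 1 in 20 for a single set. The sets share values, since the neuronal level holds Uchl1 and each departure uses the other genes. Their count is therefore not to be read against that rate. In the treated group, SCN9A_2544 replicate 3 stood apart in 4 of the 5. Mag lay 1.17 log2 units above its usual distance from the other 7 genes in that library. The neuronal level was 9.42 log2 CPM there, Uchl1 was 10.09 log2 CPM and Scn9a was 5.48 log2 CPM, each the lowest of the group. In the PBS group, Cldn19 lay 0.17 log2 units above its usual distance from the other 7 genes in PBS replicate 4.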

How the results depend on the processing

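The count of myelin protein genes called between the groups was 0 in all 18 alternatives, and that for the interaction was 0 in 15. The count of called slopes was 8, and 7 or 8 in 19 of 21 alternatives, but 3 without the 3 libraries of lowest neuronal level and 0 with the replicate block, where 0% of all genes were called lower; there the 8 slopes ran from -1.80 to -2.39 with adjusted p-values from 0.215 to 0.284, on few residual degrees of freedom. The labels name no batch shared by replicate number, and 5 pairs are too few to settle whether there was one. Deviations of same-numbered libraries correlated from -0.01 to 0.57, with 2 of 5 pairs above 0.1. Of the PBS libraries, 2 of 5 correlated best with their own number, replicate 1 (r = 0.38) and replicate 3 (r = 0.57). With 1 library left out the count of slopes ran from 7 to 8 and the median log2 fold change from -0.91 to -0.09. Single slopes kept the call in 153 values and lost it in 15, none changing sign, Drp2 also with Snap25 alone as the neuronal level (-0.84, adjusted p = 0.0551).

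Group differences kept their sign in 130 values and turned in 14, none past the threshold. With limma voom and library weights Mag lay at -0.94, and the median over the 8 genes at -0.85. Mag also lay at -0.28 without the 3 libraries, -0.23 with the replicate block and -0.24 with the neuronal covariate. With 1 library left out Mag ran from -1.08 to 0.49, Cldn19 from -0.87 to 0.18 and Pllp from -0.80 to 0.017. The causes were not tested. The share of the spread that comes from counting depth was not tested.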

Other observations

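Libraries rich in the 8 genes were not alike in other Schwann cell genes, in values chosen after they were seen. PBS replicate 5 held as much Mbp, Pmp22 and Prx as PBS replicate 3, at 9526 against 9067, 11585 against 10799 and 3319 against 3314 CPM. Drp2 and Cldn19 were higher in PBS replicate 5, at 732 against 460.4 and 280.2 against 267 CPM. Mal, Mag and Pllp were lower there, at 1208 against 1491, 128 against 155 and 374 against 385 CPM. Egr2, however, stood at 75.2 CPM in PBS replicate 5 and 171 CPM in PBS replicate 3, Gjc3 at 59.6 and 176 CPM, and Cnp at 549 and 1167 CPM. Pmp2 lay the other way, at 2560 CPM in PBS replicate 5 and 815 CPM in PBS replicate 3. Treated replicate 3 resembled PBS replicate 3 in these genes, with Egr2 at 149.7 CPM, Gjc3 at 278 CPM, Cnp at 1486 CPM and Pmp2 at 832 CPM.

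Pou3f1, a transcription factor of Schwann cells about to myelinate, stood at 301 CPM in treated replicate 3, 59.5 CPM in PBS replicate 3 and 5.63 to 14.7 CPM in the other 8 libraries. Sox10 stood at 789.8 CPM in treated replicate 3 and at 121 to 386 CPM in the other libraries, and the neuregulin receptor gene Erbb3 at 464 CPM there and at 50.7 to 212 CPM in the others.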
